A study of Mus musculus with 20 samples.

Results

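A linear dose trend was fitted for every gene of the proximal colon (PC) over all 20 libraries of the series, with the percentage of resistant potato starch (RPS) in the diet taken as a number (0, 2, 5, or 10). Membership did not depend on any measured value: all 20 of the 20 libraries carry a dose and entered, 5 at each of 4 diets, 1 library per mouse. The mice were C57BL/6, an inbred laboratory strain. From weaning, at 3 weeks of age, they were kept for 6 weeks on the Total Western Diet (TWD), which copies the nutrient profile of the average American diet. They then ate the TWD alone (0% RPS) or with 2, 5, or 10% RPS by weight for 3 more weeks. The RNA came from a short segment of the colon wall near the cecum, and each library held transcripts of epithelium, muscle, nerve, and connective tissue. In such bulk samples, fewer cells of a type and less RNA per cell cannot be told apart.

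RPS is a granular raw starch that resists digestion in the small intestine and reaches the cecum and colon, where bacteria ferment it to acetate, propionate, and butyrate. Butyrate fuels colonocytes, the absorptive cells of the surface, and inhibits histone deacetylases. Bacterial products also act on the epithelium through pattern recognition receptors, interleukin-22, and interferons. A response over dose can be graded, with each addition of starch moving expression further, or can saturate, with most of the change already present at the lowest dose.

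The libraries held 20581013 to 35083751 counts, and 3 counts, taken as the detection floor, stood at 0.086 to 0.146 CPM (library-scaled counts). That floor and the depth cover counting error only. Markers of colonocytes (7 of 7 in the table), goblet cells (7 of 7), smooth muscle (8 of 8), and enteric neurons (8 of 8) were all measured, while none of 5 T cell and none of 4 neutrophil markers is listed in the table. Of 5 small intestine markers, 3 were measured, and Apoa4 and Lct are not listed. The second library of the 0% diet stood apart on the surrogate variable, an unlabelled source of variation estimated from all genes, at 0.84 against −0.25 to 0.21 in the other 19. Its smooth muscle score, the mean over contractile genes of standardised log counts, was the highest at 1.95, and that of the others ranged from −1.461 to 1.501. Where its omission or the score moved the count of a gene list described here by over 1.5 times, the count is given.

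The trend was significant for 538 of 12545 genes tested, or 4.29% (DESeq2, Wald test, adjusted p of 0.05 or less), of which 301 rose (2.4%) and 237 fell (1.89%) as starch increased. In edgeR's quasi-likelihood test on the same design, 165 of 12366 genes passed (1.33%), 93 rising and 72 falling, and all 165 were among the 538. Leaving out 1 library in turn gave 178 (without the fifth 10% library) to 807 genes (without the second 0% library), and 146 genes, 88 rising and 58 falling, passed in all 20 such fits. Effects are given as the fitted log2 change from 0 to 10% RPS. Most were small. The median fitted change was 0.32 for rising genes and −0.36 for falling genes, and only 55 rising and 43 falling genes reached 1.5-fold. At least 2-fold changes were fitted for 20 rising and 13 falling genes. Every 10% library lay above every 0% library for 105 of the 301 rising genes, and below for 91 of the 237 falling genes. Of all genes tested, 170 lay wholly above (1.36%) and 145 wholly below (1.16%). These counts overlap with the choice of the genes and are given as a description. Rising genes were longer and lower in GC than falling genes, with a median length of 3770 bases against 2579 and a median GC content of 47.1% against 53.7% (3189 bases and 50.6% for all genes tested). When trends on GC and length within each library were removed, an alternative chosen after seeing the data, 491 genes passed, 373 of them shared, and the split moved from 301 rising and 237 falling to 245 and 246.

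Of the rising genes with the smallest adjusted p, 4 are shown by library. Lpo (lactoperoxidase, chromosome 11, 87697253 to 87719369, GRCm39) is a secreted enzyme that uses hydrogen peroxide to make antibacterial oxidants. Lpo had normalised counts of 612, 469, 561, 565, and 623 at 0% RPS, 855, 645, 850.5, 775, and 963 at 2%, 1245, 1267, 1212, 919, and 810.2 at 5%, and 1108, 992, 1753, 1178, and 1501 at 10%. The means climbed from 566 ± 61.0 to 817 ± 118, 1091 ± 211, and 1306 ± 313 (SD, n = 5), no 10% library overlapped the 0% libraries, and the fitted change was 1.13 ± 0.17 (SE, adjusted p = 9.07e-08, edgeR 0.00397).

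Ceacam12 belongs to the carcinoembryonic antigen family of surface adhesion molecules. Across the 5 libraries of each diet, Ceacam12 stood at 48.3, 28.1, 35.5, 35, and 30.1 at 0% RPS, 32.8, 82.9, 88.7, 55.6, and 72.2 at 2%, 89.1, 108, 79.6, 84.8, and 51.4 at 5%, and 119, 90.5, 145, 123, and 239.7 at 10%, in normalised counts. The fitted change was 1.81 ± 0.27 (adjusted p = 9.07e-08), the levels at 2 and 5% RPS overlapped each other, and every 10% library stood above every 0% library. Lypd8l is a relative of Lypd8, a lipid-anchored protein that holds flagellated bacteria away from the colon surface. Its normalised counts per library were 782, 1271, 581, 1068, and 785 at 0% RPS, 1327, 1292, 1599, 1082, and 1125 at 2%, 1631, 891, 1889, 1535, and 2007 at 5%, and 1864, 1524, 2961, 2567, and 3996 at 10%. Its fitted change was 1.44 ± 0.22 (adjusted p = 2.85e-07), and the highest library of all was at 10% RPS.

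Chrnb4, the beta-4 subunit of nicotinic acetylcholine receptors, is on the list of enteric neuron and glia genes. In the 5 libraries of each diet, the normalised counts were 557, 448, 542, 574, and 552 at 0% RPS, 565, 569.8, 583, 561, and 636 at 2%, 664, 687, 586, 620.2, and 577 at 5%, and 738, 661, 743, 803, and 781 at 10%. The fitted change was 0.46 ± 0.069 (adjusted p = 9.07e-08). The single low value at 0% RPS was the lowest of the 20, and all 10% libraries exceeded the highest 0% library. The other rising genes with the smallest adjusted p were Tgoln1 (a trans-Golgi protein, 0.39 ± 0.061), Atrnl1 (0.32 ± 0.050), Irf7 (the interferon regulatory factor that drives type I interferon, 1.16 ± 0.19), Gla (lysosomal alpha-galactosidase, 0.44 ± 0.078), Ces1f (a carboxylesterase, 0.56 ± 0.10), Socs6 (0.30 ± 0.054), Fam3c (0.65 ± 0.12), and Cpne2 (0.41 ± 0.076).

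**Figure D1:**
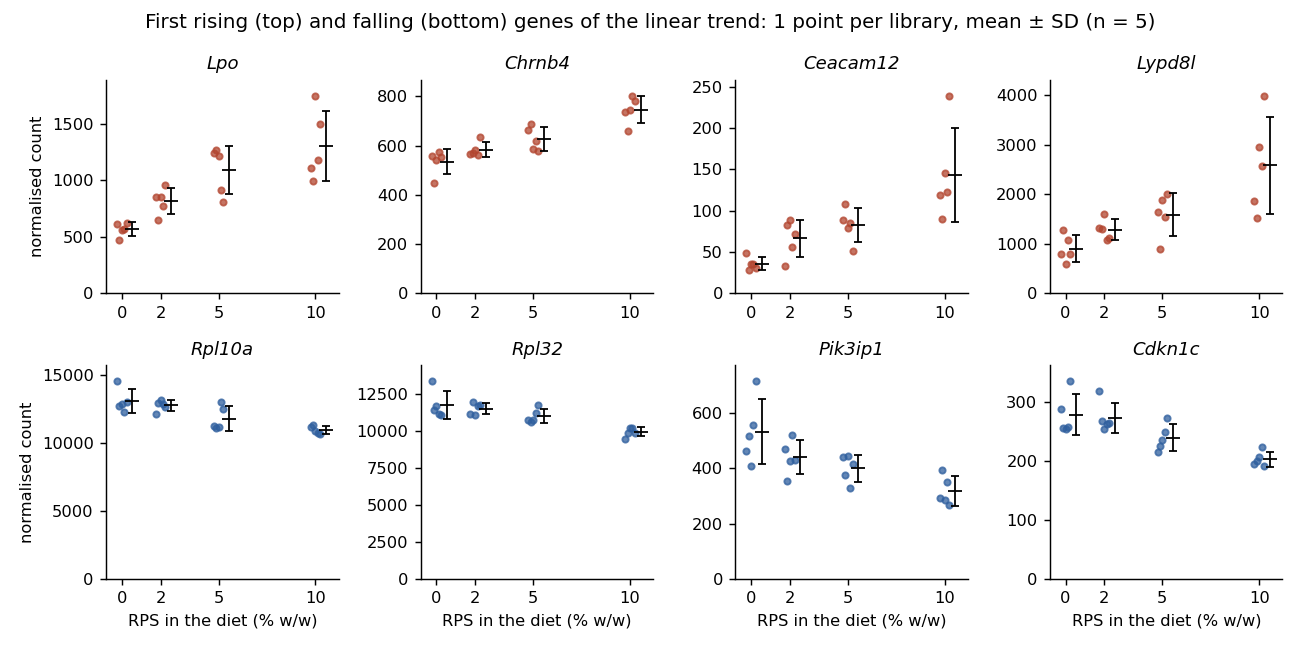
Normalised counts (y axis, linear from 0) against the percentage of RPS in the diet (x axis) for the 4 rising genes (top) and the 4 falling genes (bottom) with the smallest adjusted p in the linear trend. Each point is 1 library and the black marks are the mean ± SD of 5. In all 8 genes, the 10% libraries lie wholly above or wholly below the 0% libraries, and the 2 and 5% libraries lie between or overlap.

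Of the falling genes 4 are shown in the same way. Rpl10a (chromosome 17, 28547144 to 28550008) and Rpl32 (chromosome 6, 115782442 to 115785785) encode proteins of the large cytosolic ribosomal subunit. Rpl10a had normalised counts of 14577, 12766, 12928, 12268, and 13018 at 0% RPS, 12186, 12995, 13218, 12860.2, and 12696 at 2%, 11261, 11103, 11177, 13016, and 12556 at 5%, and 11195, 11362, 10881, 10745, and 10645 at 10%. The fall was small but even, −0.27 ± 0.048 (adjusted p = 4.40e-05, edgeR 0.0211), and every 10% library was below every 0% library. Across the 5 libraries of each diet, Rpl32 stood at 13371, 11399, 11712, 11138, and 11098 at 0% RPS, 11117, 11986, 11095, 11659.9, and 11739 at 2%, 10756, 10637, 10713, 11234, and 11759 at 5%, and 9492, 9893, 10219, 10216, and 9896 at 10%, in normalised counts. Its fitted change was −0.24 ± 0.045 (adjusted p = 6.57e-05), and again the 0 and 10% libraries did not overlap.

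Pik3ip1 is an inhibitor of phosphoinositide 3-kinase. Its normalised counts per library were 464, 518, 409, 558, and 715.4 at 0% RPS, 469, 353, 426, 521, and 431 at 2%, 439.7, 374, 445, 329, and 415 at 5%, and 291, 393, 284, 352, and 267 at 10%. The fitted change was −0.70 ± 0.14 (adjusted p = 0.000154). Cdkn1c encodes p57, an inhibitor of cyclin-dependent kinases. In the 5 libraries of each diet, the normalised counts were 289, 256, 255, 258, and 336 at 0% RPS, 318, 268, 254, 263, and 265 at 2%, 215, 225, 237, 250.2, and 274 at 5%, and 195, 199, 207, 224, and 191 at 10%. The fitted change was −0.48 ± 0.093 (adjusted p = 0.000181). In both genes the 10% libraries were wholly below those of the 0% diet. The remaining leading genes included Cttnbp2 (−0.91 ± 0.18), Gtf2i (−0.25 ± 0.051), the immunoglobulin kappa variable gene Igkv2-109 (−3.34 ± 0.68), Slc25a27 (−0.58 ± 0.12), Rpl6 (−0.18 ± 0.038), the cholecystokinin receptor Cckar (−1.14 ± 0.24), and Dus3l (−0.26 ± 0.056). Igkv2-109 varied widely among mice at 0% RPS (79.1 ± 91.6), and its reads may be shared with near-identical variable genes.

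The pathways were described with 43 gene lists, chosen with earlier results of these data known, so their shares are a description. Of the 301 rising genes 61 stood on one of these lists, and most stood on none. A list is given by how many of its tested members rose or fell in the fit over all genes, to be read against 2.4% rising and 1.89% falling overall. Surface proteins are described first. In the list of Ceacam, Lypd8, and Plet1 surface proteins, 6 of 14 genes rose (42.9%), none fell, and all 14 estimates were above 0, with a median of 0.60 (0.00 for all genes tested). Beside Ceacam12 and Lypd8l, they included Ceacam1 (0.58 ± 0.12, with means of 59155, 68505, 79649, and 89772) and Plet1os (1.34 ± 0.25), which lies antisense to Plet1 and cannot be told from it if strand was not used in counting. Of 7 genes that make or use hydrogen peroxide, 3 rose, Lpo and the pair Duox2 (1.35 ± 0.33) and Duoxa2 (2.15 ± 0.55), the epithelial oxidase and its maturation factor. Among 13 Reg3 lectins and antimicrobial proteins, 2 rose, Lypd8l and Reg3a (1.73 ± 0.53, adjusted p = 0.0354, edgeR 0.13), a lectin that binds Gram-positive bacteria.

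Mucus genes formed the second group. Of 23 goblet cell and mucus genes, 9 rose (39.1%), none fell, and the median was 0.37. They included Muc13, a transmembrane mucin (0.58 ± 0.12), and 3 glycosyltransferases that build mucin sugar chains, Gcnt3 (0.37 ± 0.070), Galnt12 (0.37 ± 0.090), and C1galt1 (0.41 ± 0.11). edgeR called 3 of the 9. Summed over the 7 goblet cell markers, the level ranged from 481233 to 815008 normalised counts at 0% RPS and from 594993 to 1076940 at 10%, and 1 of the 7 rose. The part of goblet cell number in the mucus genes was not tested.

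In the interleukin-22 and STAT3 list, 4 of 18 genes rose and none fell, with a median of 0.42. They were Stat3 itself (0.39 ± 0.11), Nfkbiz (0.51 ± 0.12), an inducible nuclear regulator of NF-kB, Sprr2a2 (0.75 ± 0.20), and Fut2 (0.81 ± 0.26), the fucosyltransferase that decorates the epithelial surface. Fut2 passed narrowly (adjusted p = 0.0497) and in 6 of 20 fits that left out 1 library. edgeR called 1 of the 4. In contrast, none of 25 genes for Toll-like receptor and NF-kB signalling passed in DESeq2 or edgeR (3 and 2 at an unadjusted p under 0.05), and their median was 0.06. Without the second 0% library 1 of the 25 passed.

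Of 53 interferon-stimulated genes, 8 rose (15.1%), none fell, 43 of the 53 estimates were above 0, and the median was 0.15. edgeR called 3. Irf7 had the smallest adjusted p. Irf7 had normalised counts of 2512, 2427, 2414, 2084, and 1985 at 0% RPS, 2832, 2521, 4037, 2603, and 2250.0 at 2%, 2718, 2819.9, 3084, 2628, and 2982 at 5%, and 7641, 3479.9, 7146, 3099.7, and 5414 at 10%. The 2% libraries overlapped those at 0 and at 5%, every 5% library lay above every 0% library, and 3 of the 10% libraries stood above all others and 2 lay within the range of the 2% diet. The others were Ido1 (tryptophan breakdown, 1.20 ± 0.24), Psmb8 (a subunit of the immunoproteasome, 0.50 ± 0.13), Helz2 (0.28 ± 0.081), Zbp1 (a sensor of Z-form nucleic acid, 0.97 ± 0.29), Oas3 (0.86 ± 0.27), Ifih1 (0.23 ± 0.075), and Ifit1 (0.62 ± 0.20). The last 3, sensors or effectors against viral RNA, had adjusted p values of 0.0414 (Oas3), 0.0439 (Ifih1), and 0.0450 (Ifit1), and none of the 3 passed in edgeR.

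Promoters of rising interferon-stimulated genes were read from RefSeq (GRCm38.p6), as the 250 bases before the annotated start, and searched on both strands for the core of the interferon-stimulated response element, GAAANNGAAA or TTTCNNTTTC on the gene's strand. Of the 8 genes, 6 had a window and 2 held the letters, Ifit1 and Oas3, shown here 5′ to 3′ on the strand of the gene with the matches in capitals because they carry the textbook element. The Ifit1 window is chr19:34640639-34640888, plus strand, and the Oas3 window is chr5:120777660-120777909, minus strand.
Ifit1: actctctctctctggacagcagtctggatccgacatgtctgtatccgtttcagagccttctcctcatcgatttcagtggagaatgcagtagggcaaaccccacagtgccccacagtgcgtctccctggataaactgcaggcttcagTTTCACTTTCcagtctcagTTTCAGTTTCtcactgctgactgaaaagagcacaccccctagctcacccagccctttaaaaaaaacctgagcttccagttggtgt
Oas3: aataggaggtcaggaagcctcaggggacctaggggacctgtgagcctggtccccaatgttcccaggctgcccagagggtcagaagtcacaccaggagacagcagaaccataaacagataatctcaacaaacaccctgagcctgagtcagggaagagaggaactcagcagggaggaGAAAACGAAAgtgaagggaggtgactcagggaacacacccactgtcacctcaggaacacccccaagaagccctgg
Ifit1 held 2 matches and Oas3 held 1. Over the whole interferon list 19 of 41 genes with a window held the letters (46.3%), counting a gene if any of its windows matched. The share was 293 of 9450 genes tested that had a window (3.10%), and 2.98% of the 32851 windows used. Irf7 had none within this window. A match is a run of letters, not a measured binding site.

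Antigen presentation through MHC class I also rose in part. Of 25 genes 5 rose and none fell, including H2-D1 (0.36 ± 0.079) and H2-K1 (0.29 ± 0.087), heavy chains that share sequence and thus reads, Psmb8, and the proteasome activator Psme2 (0.30 ± 0.091). edgeR called 2 of the 5. Of 23 genes of inflammasomes and regulated cell death, 4 rose: Casp4, the sensor of cytosolic lipopolysaccharide (0.70 ± 0.14), the necroptosis kinase Ripk3 (0.58 ± 0.14), Casp8 (0.38 ± 0.11), and Zbp1. edgeR called 2 of the 4. Of 9 apolipoprotein L and Trim genes 1 rose, Apol7a (1.09 ± 0.22).

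The list of butyrate transport and sensing gave 3 rising genes of 17, each also called by edgeR. Slc5a8, the sodium-coupled monocarboxylate transporter that takes up butyrate, rose by 0.58 ± 0.12 on the log2 scale, with means of 3144, 3311, 4110, and 4595. Ffar4, a receptor for long-chain fatty acids and not for butyrate, changed by 1.05 ± 0.24 and Hdac1, a histone deacetylase, by 0.39 ± 0.093. The median of the 17 was 0.04, near that of all genes. Few energy genes passed: none of 32 genes of fatty acid oxidation and ketogenesis and 1 of 45 of oxidative phosphorylation (Cycs, 0.44 ± 0.14) passed in DESeq2, and none of either list in edgeR. Without the second 0% library, 2 of the 32 and none of the 45 passed. At an unadjusted p under 0.05 the fatty acid list gave 4 genes in DESeq2 and 2 in edgeR.

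Transport of salt, water, and minerals gave 4 rising and 1 falling gene of 25. The rising genes were the ferritin receptor Scara5 (0.83 ± 0.16), the plasma membrane calcium pump Atp2b1 (0.54 ± 0.11), the magnesium channel Trpm6 (0.68 ± 0.15), and Scnn1b, a subunit of the epithelial sodium channel (0.82 ± 0.22). Tight junction genes gave 2 rising of 24, Cldn23 (0.52 ± 0.11) and the cation-pore claudin Cldn2 (0.69 ± 0.18), and 1 falling, Jam3 (−0.42 ± 0.12). Retinoid and steroid oxidoreductases gave 3 rising of 31, Rdh16 (1.01 ± 0.22), Rdh9 (1.54 ± 0.42), and Akr1c18 (0.97 ± 0.27), and 1 falling, Adh1 (−0.67 ± 0.19). Rdh16 and Rdh9 are close paralogs whose reads may be shared. edgeR called 3 of the 5 transport genes, 1 of the 3 junction genes, and 1 of the 4 oxidoreductases, and without the second 0% library 8 oxidoreductases passed.

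**Figure D2:**
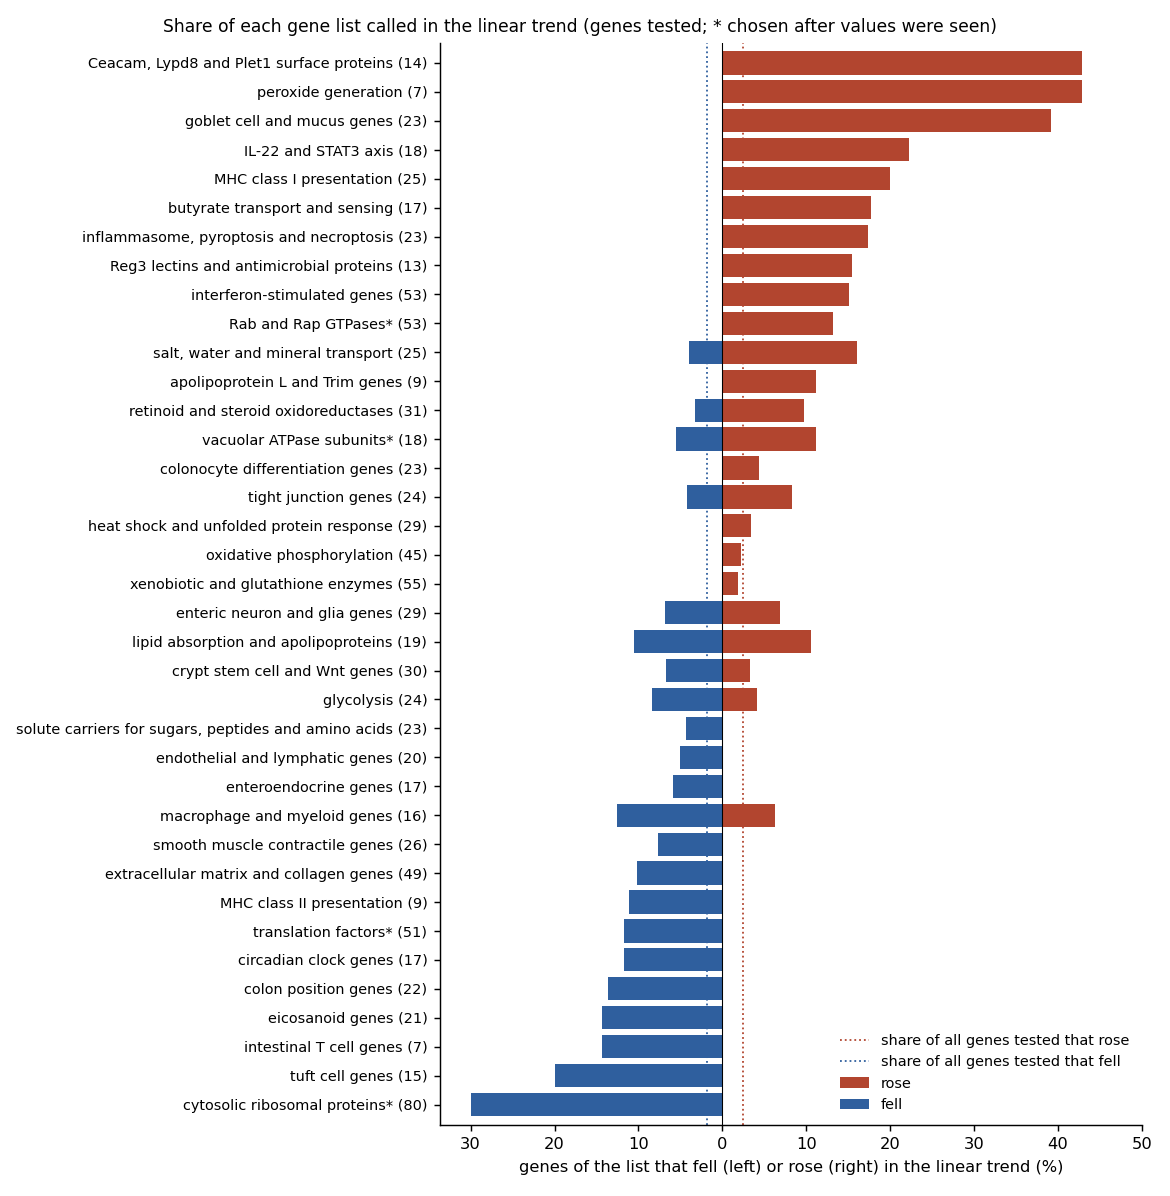
Share of each gene list (y axis, number of genes tested in brackets) that rose (red, to the right) or fell (blue, to the left) in the linear trend, as a percentage of the genes tested (x axis). Dotted lines mark the share over all genes, 2.4% rising and 1.89% falling. Lists with no called gene are left out, and lists marked with an asterisk were chosen after values were seen. The other lists were chosen with earlier results of these data known. The surface protein, peroxide, and mucus lists reach furthest to the right, and the tuft cell and ribosomal protein lists furthest to the left.

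Of the 237 falling genes 30 stood on a list and 24 were cytosolic ribosomal proteins, and most belonged to no group described here. All 15 tuft cell genes had estimates below 0, with a median of −0.37, and 3 fell (20%): Sh2d6 (−0.50 ± 0.14), Alox5 (−0.53 ± 0.12), and Alox5ap (−0.63 ± 0.19). Tuft cells are chemosensory cells that release leukotrienes, and Alox5 and Alox5ap start that synthesis but are also expressed in myeloid cells. Both stood on the eicosanoid list, where 3 of 21 fell, the third being Abcc6 (−0.66 ± 0.20). edgeR called 1 gene of each list. The defining tuft markers Pou2f3 and Il25 are not listed in the table, and the summed tuft markers ranged from 2379 to 3183 normalised counts at 0% RPS and from 2008 to 2735 at 10%.

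Genes of the extracellular matrix gave 5 falling and no rising of 49, and 46 estimates were below 0 (median −0.15). They included Col23a1 (−0.75 ± 0.17), Ecm2 (−0.72 ± 0.18), and the small proteoglycans Ogn (−0.54 ± 0.14) and Aspn (−0.73 ± 0.21). The list of smooth muscle contractile genes gave 2 falling of 26, Pln (−0.76 ± 0.19) and Smoc2 (−0.43 ± 0.11). Pln restrains the calcium pump of the sarcoplasmic reticulum, while Smoc2 encodes a secreted protein that is not contractile. Of the 26 estimates, 25 were below 0 (median −0.19). edgeR called 2 of the 5 matrix genes. Without the second 0% library the matrix median was 0.01 with 4 falling, and the contractile median −0.08 with 2 falling. With the smooth muscle score as a covariate, the medians were 0.06 and 0.03, with 3 and 2 falling. The score is built from contractile genes, so their own median under it is fixed in part by construction. Summed smooth muscle markers ranged from 127736 to 280219 at 0% RPS and from 131273 to 221048 at 10%.

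Hox genes mark position along the gut. Hoxa5, Hoxa7, and Hoxa9 fell among 22 position genes, and edgeR called none (7 at an unadjusted p under 0.05, 6 in DESeq2). Hoxa9 had 2422 normalised counts in the second 0% library, while the 10% libraries ranged from 201 to 244. Without that library its fitted change was −0.80 (adjusted p = 0.0273) in place of −1.67, and that of Hoxa7 was −0.45 (adjusted p = 0.0662) in place of −0.90. Without the library 2 position genes fell and 1 rose, and with the smooth muscle score as a covariate none of the 22 passed.

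Other falling genes were few per list. Of 17 clock genes 2 fell, among them Per1 (−0.60 ± 0.19), which encodes a repressor of the clock, and the median was −0.42. edgeR called none of the 17, with 4 at an unadjusted p under 0.05 (4 in DESeq2), and 1 fell with the smooth muscle score and 1 after removal of GC and length trends. Of 29 neuron and glia genes 2 rose (Chrnb4 and the glial filament Gfap, 0.61 ± 0.14) and 2 fell (among them the neurotrophin receptor Ngfr, −0.44 ± 0.12), with a median of −0.24. Of the 29 estimates 25 were below 0. At an unadjusted p under 0.05 the list gave 16 genes (15 in edgeR), against 19.1% of all genes (18.3% in edgeR). Slc15a1, the peptide transporter of the brush border, fell by 1.52 ± 0.36 on the log2 scale, the 1 gene to pass of 23 solute carriers, of which 3 passed without the second 0% library and 2 with the smooth muscle score. In lipid handling, Mogat2 (1.03 ± 0.25) and Gpd1 (0.68 ± 0.18) rose, and Apoa1 (−2.76 ± 0.72) and the cholesterol exporter Abca1 (−0.51 ± 0.14) fell, of 19. edgeR called 1 of the 4, and 2 of the 4 neuron and glia genes. No gene passed in DESeq2 or edgeR among 40 cell cycle genes, although 38 estimates were above 0 (median 0.19), among 25 genes of cholesterol synthesis, among 20 of lipogenesis, or among 15 adipocyte genes, whose markers reached 14568 normalised counts in 1 library at 10% RPS. At an unadjusted p under 0.05 the cell cycle list gave 1 gene and the lipogenesis list 4 in either tool, and the cholesterol and adipocyte lists none. In lipogenesis 1 gene passed without the second 0% library and 1 with the smooth muscle score.

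Cytosolic ribosomal proteins gave the largest single group of falling genes. This list was taken whole by gene symbol after values had been seen, so it is described without a test. Of 80 genes 24 fell (30%), none rose, and 78 estimates were below 0, with a median of −0.15. The 24 make up part of the 237 falling genes, and edgeR called 9. The falls were shallow: beside Rpl10a, Rpl32, and Rpl6, they included Rps6 (−0.21 ± 0.049) and Rack1 (−0.18 ± 0.050). The count was 28 without the second 0% library, 26 with the smooth muscle score, and 34 after removal of GC and length trends. Mitochondrial ribosomal proteins, also grouped after values were seen, gave none of 78 in DESeq2 or edgeR (2 at an unadjusted p under 0.05 in either), and 61 estimates were above 0. Of 51 translation factors 6 fell, among them Eef2 (−0.30 ± 0.077), which moves the ribosome along the transcript, Eif4b (−0.20 ± 0.058), Eif3f (−0.26 ± 0.078), and Eif3l (−0.14 ± 0.044). edgeR called none of the 51, with 16 at an unadjusted p under 0.05 (17 in DESeq2).

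Summed over the 80 genes, ribosomal proteins took 3.32, 2.83, 2.81, 2.73, and 2.82% of the normalised counts at 0% RPS, 2.88, 2.94, 2.84, 2.96, and 2.86% at 2% RPS, 2.66, 2.53, 2.72, 2.78, and 2.99% at 5% RPS, and 2.52, 2.55, 2.55, 2.47, and 2.42% at 10% RPS. Every 10% library was below every library of the 0 and 2% diets, and 1 library at 0% RPS was higher than all others. The 2% libraries all lay above the other 4 libraries of the 0% diet. Many ribosomal protein genes have processed pseudogenes with nearly the same sequence, so their counts are uncertain in so far as reads were split between copies.

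**Figure D3:**
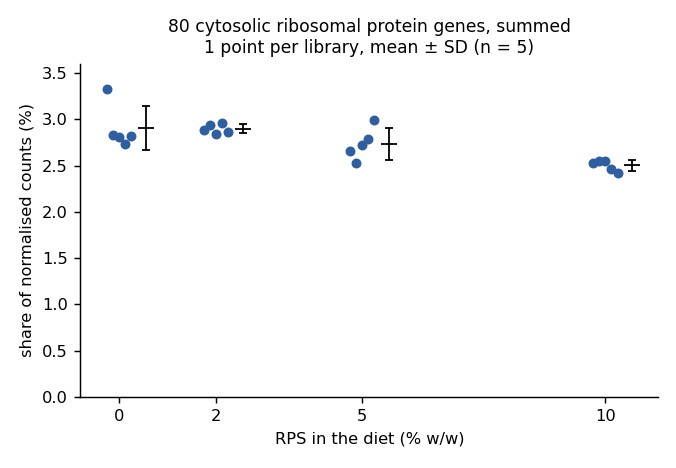
Share of all normalised counts taken by the 80 cytosolic ribosomal protein genes (y axis, percent, from 0) against the percentage of RPS in the diet (x axis). Each point is 1 library and the black marks are the mean ± SD of 5. The 10% libraries, at 2.42 to 2.55%, lie below all libraries at 0% (2.73 to 3.32%) and 2% RPS (2.84 to 2.96%).

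Ribosomal protein transcripts typically begin with a cytosine and a run of pyrimidines that places their translation under growth control. RefSeq windows (GRCm38.p6) were searched for a run of at least 8 C or T letters that overlapped the 10 bases on either side of the annotated start. Of the 24 falling genes, 18 had a window and 5 held such a run. These 5 are shown as the 20 bases on either side of the start, 5′ to 3′ on the strand of the gene. The longest run is in capitals, because a run at the start is the hallmark of the family. The capitals of Rps6 and Rack1 span the annotated start, and those of Rps15a, Rpl31, and Rpl4 lie wholly before it. Rps15a holds another, shorter run that meets the rule, spans the annotated start, and is left in lower case. The windows are chr4:86857348-86857387 (Rps6, minus strand), chr7:118116128-118116167 (Rps15a, minus strand), chr1:39367831-39367870 (Rpl31, plus strand), chr9:64173367-64173406 (Rpl4, plus strand), and chr11:48800340-48800379 (Rack1, plus strand).
Rps6: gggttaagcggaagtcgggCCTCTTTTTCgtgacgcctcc
Rps15a: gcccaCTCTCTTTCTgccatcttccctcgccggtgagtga
Rpl31: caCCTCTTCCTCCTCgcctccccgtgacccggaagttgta
Rpl4: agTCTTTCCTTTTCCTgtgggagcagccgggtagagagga
Rack1: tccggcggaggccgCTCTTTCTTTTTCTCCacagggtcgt
A run of that length lay at or near the start of 29 of 59 cytosolic ribosomal protein genes with a window (49.2%). The same held for 1606 of 9450 genes tested that had a window (17%). In the falling genes the share was 27.8%, and its difference from the family was not tested. Annotated starts can lie some bases from the true start, and several genes have more than 1 window, of which the one with the longest run was used.

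Genes of membrane traffic were also grouped after values were seen. Of 53 Rab and Rap GTPases 7 rose and none fell, including Rap1b (0.25 ± 0.052), Rab21 (0.22 ± 0.055), Rab10 (0.19 ± 0.049), and Rab1a (0.25 ± 0.071), while the median was 0.02. edgeR called 2, and 4 rose after removal of GC and length trends, as with the smooth muscle score. Of 18 subunits of the vacuolar proton pump, Atp6v1a (0.19 ± 0.043) and Atp6ap2 (0.29 ± 0.076) rose and Atp6v1g2 (−0.34 ± 0.097) fell. edgeR called 1 of the 3.

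The shape of the change over dose was described next. Among the 301 rising genes, the median log2 change from 0% RPS was 0.12 at 2%, 0.20 at 5%, and 0.34 at 10%, so that 34.6% of the full change was present at 2% and 59.7% at 5%. A straight line would give 20% and 50%. Among the 237 falling genes, the medians were −0.10, −0.23, and −0.37, or 28.3% and 61.7% of the full change. Per percent of added starch, rising genes moved by a median of 0.059 between 0 and 2%, 0.031 between 2 and 5%, and 0.024 between 5 and 10%, and falling genes by −0.052, −0.038, and −0.023. Over all genes tested, those higher at 10% RPS had 53.8% and 79.1% of the change at 2 and 5%, and those lower 60.7% and 88.9%. Their movement per percent also shrank, over 0.028, 0.0090, and 0.0061, and over −0.035, −0.012, and −0.0047. The early shares of the trend genes were below this background and are not read as saturation. The diet means were in strict order for 227 of the 301 rising genes and 190 of the 237 falling genes, against 9.06% and 10.6% of all genes tested, shares that the choice of genes by a trend raises. A test for a line favours genes that follow one.

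Genes were therefore also chosen by a test that favours no shape. Any difference among the 4 diets was found for 299 genes (2.38%, likelihood ratio test with 3 degrees of freedom in DESeq2), of which 217 were also in the trend. edgeR called 7. Among the 193 that were higher at 10% RPS, the medians from 0% RPS were 0.20, 0.32, and 0.38, so that 52.6% of the change was present at 2% and 82.7% at 5%. Among the 106 that were lower, the medians were −0.19, −0.34, and −0.39, or 47.5% and 88.2%. Over all genes tested, the same shares were 53.8% and 79.1% for the 6277 genes higher at 10% RPS and 60.7% and 88.9% for the 6262 lower. The 3 changes share the 0% libraries. The early share in the genes with any difference was thus near or below this background and is not read as a shape. The 2 sets of genes overlap, and the difference in shape between them was not tested.

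**Figure D4:**
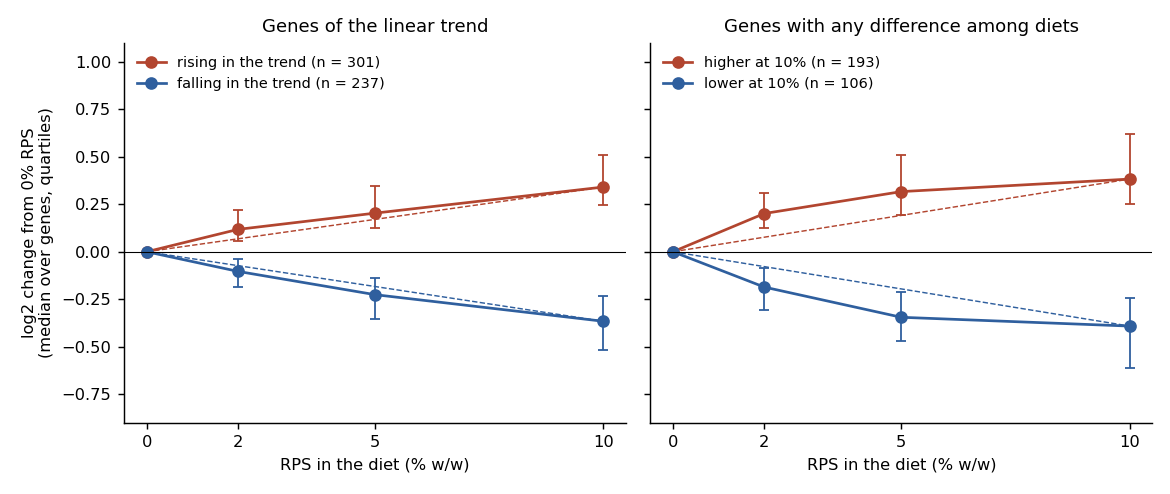
Median log2 change from 0% RPS over genes (y axis, with quartiles as bars) against the percentage of RPS in the diet (x axis) for the 301 rising and 237 falling genes of the linear trend (left) and for the 299 genes with any difference among diets, split by direction at 10% RPS (right). Dashed lines join 0 to the median at 10% RPS, as a strictly linear change would. The medians lie farther from 0 than the dashed lines at 2 and 5% RPS, more so on the right, where the shares of the change at 2% (52.6 and 47.5%) are near or below those of all genes tested (53.8 and 60.7%). On the left the shares at 2% (34.6 and 28.3%) are below those of all genes tested.

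Each of the 297 genes of that set whose mean normalised count was 10 or more was compared with 5 simple shapes. A line in log2(1 + percent), which rises early and flattens, captured most of the between-diet variation for 132 genes (44.4%, against 14.1% of all 12348 genes), a step at 2% for 67 (22.6% against 35.3%), a line in percent for 59 (19.9% against 9.38%), a step at 5% for 21 (7.07% against 19.9%), and a step at 10% for 18 (6.06% against 21.2%). The shapes are alike (r = 0.94 between the line and the log line over the 20 libraries), so the best shape of 1 gene is a description. With the steps at 2, 5, and 10%, the log line had r of 0.86, 0.87, and 0.70, and the line 0.65, 0.86, and 0.88. The steps were less alike (r = 0.33 to 0.58), so the lead of the log line over the steps is a description too. Among 537 genes of the trend, the line in log2(1 + percent) was best for 249 (46.4%) and the line in percent for 208 (38.7%).

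Genes of unlike shape could be named. The following 4 were chosen from the named genes after their values were seen. Slc15a1 fell mostly at the first dose. Across the 5 libraries of each diet, Slc15a1 stood at 197, 553, 165, 332, and 374 at 0% RPS, 194, 145, 81.7, 141, and 162 at 2%, 70.1, 114, 152, 115, and 85 at 5%, and 109.5, 106, 53.5, 167, and 64.8 at 10%, in normalised counts. Its log2 changes from 0% RPS were −1.16 ± 0.33, −1.60 ± 0.33, and −1.69 ± 0.33 (SE), and the highest value was in the second 0% library, without which the fitted trend was −1.23. Muc13 rose over 2 doses and then stood level. Its normalised counts per library were 46309, 36225, 41471, 43546, and 38118 at 0% RPS, 45267, 47584, 49057, 44039.9, and 59475 at 2%, 60100.5, 76255, 68445, 48045, and 57976 at 5%, and 57078, 65127, 67074, 62228, and 59551 at 10%. The log2 changes were 0.25, 0.60, and 0.60. Duox2 resembled a step at 5% RPS. In the 5 libraries of each diet, the normalised counts were 2103, 3949.6, 2518, 2212, and 1408 at 0% RPS, 2804, 2292, 2582, 2426, and 4581 at 2%, 5569.9, 7680.2, 8832, 3398, and 3419 at 5%, and 4320.4, 5409, 6148, 5887, and 7326 at 10%. The log2 changes were 0.27, 1.25, and 1.25, and the 5% libraries held 3 high values and 2 within the range of the lower diets. Irf7, whose libraries are given above, changed by 0.32, 0.32, and 1.23, with the means at 2 and 5% nearly equal.

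The departure from a straight line was tested directly, as diet as a factor against starch as a number (DESeq2, likelihood ratio test with 2 degrees of freedom). It was significant for 1 of 12561 genes (0.00796%), Akr1b7, and for none in edgeR. At an unadjusted p under 0.05, 741 genes departed in DESeq2 (5.90%) and 641 in edgeR (5.18%). Of the genes in the trend 39 of 538 departed at that unadjusted level, and of those with any difference 117 of 299. The test for any difference includes the departure, so the latter share is raised by the choice of genes and is not read as a shape. A missed threshold does not show that a gene followed a line.

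Akr1b7 is an aldo-keto reductase that detoxifies lipid aldehydes. Akr1b7 had normalised counts of 134, 118, 81.8, 108, and 79.8 at 0% RPS, 313, 208, 234, 194, and 296 at 2%, 290.3, 266, 280.5, 204, and 187 at 5%, and 246, 359, 224, 224, and 171 at 10%. No library with starch overlapped the 0% libraries, and the 3 starch diets overlapped one another. Fitted as a step at any starch plus a slope among the starch diets, the step was 1.26 ± 0.22 (adjusted p = 5.94e-05) and the slope was −0.03 ± 0.24 per 10% RPS. It was the only gene of 12556 (0.00796%) with a step in DESeq2. edgeR called none, with 1127 genes at an unadjusted p under 0.05, against 1205 in DESeq2. Akr1b7 did not pass in the linear trend (0.80 ± 0.29, adjusted p = 0.0826). Akr1b7 passed both tests in 19 of the 20 fits that left out 1 library, with a step of 1.17 to 1.36 over the 20. Without the first 0% library 280 genes passed the step and 60 departed from a line, but DESeq2's filter then tested 6236 and 4046 genes and left Akr1b7 out, with an unadjusted p for the step of 1.16e-09.

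Whether expression still moved between 2, 5, and 10% RPS was asked by the slope among the starch diets in that same fit. It passed for 24 of 2585 genes (0.928%), the most abundant ones, to which DESeq2's filter restricted the adjustment. Of these 10 rose and 14 fell, and 21 were also in the linear trend. Over all genes 1148 had an unadjusted p under 0.05. edgeR called none, with 1086 at that level. Of the 14 falling genes 13 were cytosolic ribosomal proteins, among them Rpl32 (−0.27 ± 0.061, adjusted p = 0.00637) and Rpl10a (−0.27 ± 0.065, adjusted p = 0.0116), and the other was Eif3f. The share of ribosomal proteins among the 2585 abundant genes was not counted. The called genes that were not in the linear trend were all among the 13, with their highest means at 2% RPS. For Rpl32 and Rpl10a the step at any starch was 0.03 ± 0.053 and 0.01 ± 0.057. Without the filter, 22 genes passed, 16 rising and 6 falling, of which 8 were shared, and leaving out 1 library in turn gave 3 (without the fifth 10% library) to 89 (without the first).

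The rising genes of that slope were Tmem30a, Ces1f, Irf7, Atrnl1, Tgoln1, Cxadr, Dyrk2, Rap1b, Slc5a8, and Rab10. Tmem30a, the partner subunit of lipid flippases, came first. Across the 5 libraries of each diet, Tmem30a stood at 3172, 3541, 3589.9, 3448, and 3421 at 0% RPS, 3221, 3417, 3539.5, 3384, and 3388 at 2%, 3759, 3616, 3633, 3557, and 3472 at 5%, and 3649.6, 3897, 4164, 3969.9, and 4048 at 10%, in normalised counts. The 0 and 2% diets overlapped throughout, and the slope among the starch diets was 0.27 ± 0.052 per 10% (adjusted p = 0.000498). In all 538 genes of the linear trend the slope among the starch diets had the sign of the trend, and in 392 the step at any starch had it too, a description since both share libraries with the trend.

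**Figure D5:**
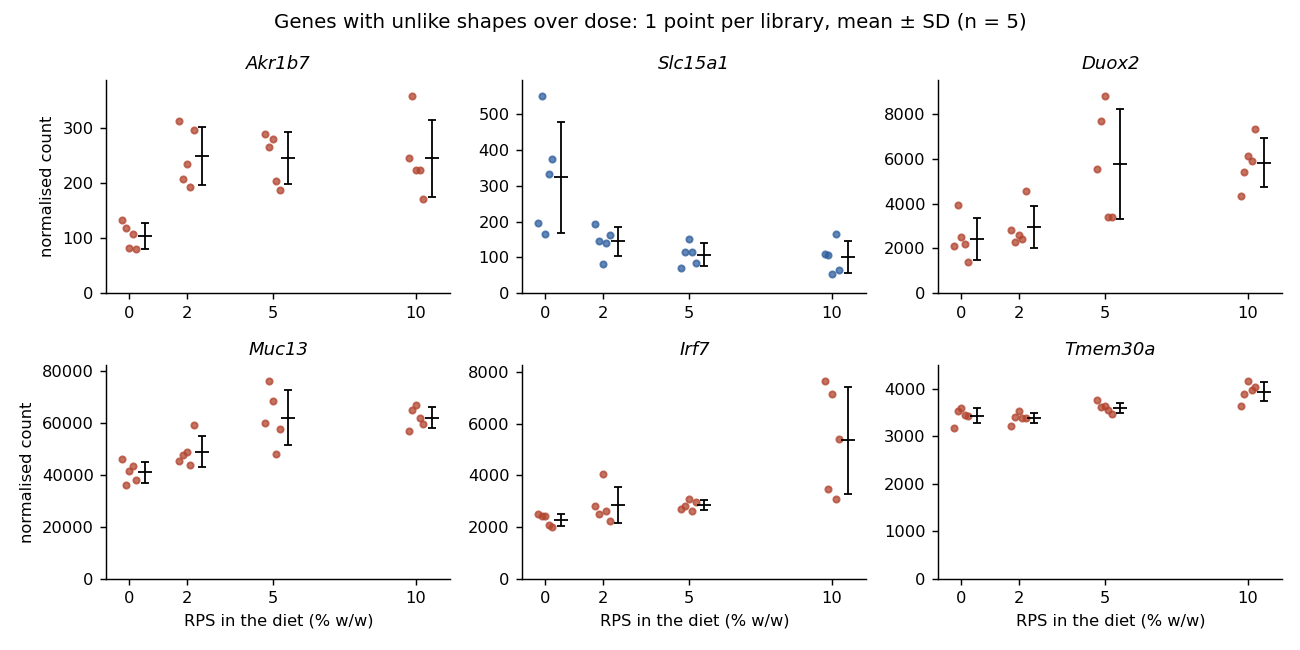
Normalised counts (y axis, linear from 0) against the percentage of RPS in the diet (x axis) for 6 genes whose diet means took unlike courses. Each point is 1 library and the black marks are the mean ± SD of 5. By their means, Akr1b7 is level over the 3 starch diets, Slc15a1 falls mostly by 2% RPS, Duox2 and Muc13 are level from 5% RPS, and Irf7 and Tmem30a reach their highest means at 10% RPS. Only Akr1b7 passed the test for a departure from a straight line.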

How the data were processed

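RNA from the PC of 20 C57BL/6 mice, 5 on each of 4 diets, was sequenced by the authors in stranded mRNA libraries with single 50-base reads. Low-quality bases and ambiguous reads were discarded by the authors, who aligned and counted reads with CLC Genomics Workbench (version 20.01) on GRCm39, the build that the submitters' processing notes also name. The deposited values are raw counts per Ensembl gene, neither normalised nor pooled. The annotation, the use of strand, and the handling of reads that match several places are not given in the sources used here, so counts of overlapping, antisense, or near-identical genes are uncertain. Of 12701 genes, 12682 were matched in GENCODE M39. All per-sample columns were used.

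Libraries were assigned to diets by the treatment in their labels. Replicates were numbered in accession order and were not paired, and p values measure the spread between these mice. The 5 tests below were run on all 12701 genes with DESeq2 (version 1.42.0, R 4.3.3), as in the study: the slope on percent RPS, the slope and the step in a fit of any starch plus percent, and likelihood ratio tests of diet against a line and against no diet. P values were adjusted by Benjamini-Hochberg over all genes tested, with a threshold of 0.05. An adjusted p is DESeq2's unless edgeR (version 4.0.16) is named. edgeR used TMM factors, its expression filter, and the quasi-likelihood test. Counts were normalised by DESeq2 size factors, and shapes were fitted to variance-stabilised values. In simulated counts, DESeq2's linear trend recovered most planted linear changes, which were larger than most of those fitted here. Smaller changes were not simulated, and no recovery was required of the other tests.

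Named genes were the 12 rising and 12 falling genes with the smallest adjusted p and a mean of at least 10, up to 4 called genes per list, and up to 4 per further test. Some genes that the rule names are not reported here. Oas3, Ifih1, Ifit1, Cxadr, Dyrk2, Rps6, Rack1, Rps15a, Rpl31, and Rpl4 fall outside that rule and were named after their values were seen, as was the choice of Slc15a1, Muc13, Duox2, and Irf7 for their shapes. The members and lists were chosen with earlier results of these data known. Alternatives were edgeR, limma voom (version 3.58.1), TMM factors, other filters, log or rank dose, a fold threshold, 1 surrogate variable (sva 3.50.0), a smooth muscle score, and omission of each library or of 3 libraries numbered apart from the other 17 in the labels. Removal of GC and length trends and the lists of ribosomal proteins, translation factors, GTPases, and proton pump subunits were added after seeing the data. Promoter windows are from RefSeq (GRCm38.p6), whose coordinates were not mixed with those of the genes. Only windows of 300 bases were used, and none on chromosome 18.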

Additional observations from a re-analysis of the deposited data

Results flagged for a closer look

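Of 40 groups of 5 libraries examined for a value far from the others (Dixon's ratio above 0.71), 3 held one, and chance alone gives about 1 in 20. At 0% RPS the lowest library of Chrnb4 had 447.8 normalised counts against 541.8 in the nearest (ratio 0.744). At 0% RPS the highest library of Rpl32 had 13371 against 11712 (ratio 0.729). At 2% RPS the highest library of Cdkn1c had 318 against 268 (ratio 0.780). All 3 genes passed the linear trend in each of the 20 fits that left out 1 library.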

How the results depend on the processing

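The linear trend called 538 genes. It called 165 in edgeR, 895 with 1 surrogate variable, 265 without the 3 libraries outside the run of label numbers, 871 on log2(1 + percent), and 98 with a 1.5-fold threshold. Leave-one-out fits gave 178 (without 10% replicate 5) to 807 (without 0% replicate 2), with 236 without 10% replicate 3 and 351, 307, and 267 without 0% replicates 1, 4, and 5. The slope among starch diets (24) gave 0 in edgeR and 0 in limma voom (1086 and 1647 at an unadjusted p under 0.05), 73 with the surrogate variable, 45 with the smooth muscle score, 66 without 0% replicate 2, 3 without those 3 libraries, and 144 on the starch diets alone. Leave-one-out fits gave 3 (without 10% replicate 5) to 89 (without 10% replicate 1). The step (1) gave 0 in edgeR and voom (1127 and 2103 unadjusted), 5 with the surrogate variable or the muscle score, 2 without 0% replicate 2 or after GC and length removal, and 1 to 280 on leaving out 1 library, the highest without 0% replicate 1. The departure from a line (1) gave 0 in edgeR and voom (641 and 1697 unadjusted), 5 with the surrogate variable or without the 3 libraries, 4 with the muscle score or without 0% replicate 2, and 1 to 60 on leaving out 1 library, the highest without 0% replicate 1. Any difference (299) gave 7 in edgeR, 905 in voom, 684 with the surrogate variable, 556 without 0% replicate 2, 189 without the 3 libraries, and 122 (without 0% replicate 5) to 556 on leaving out 1 library. The share of genes best on a line (19.9%) was 38.7% among the genes of the trend, where the line in log2(1 + percent) still led (46.4%). The other settings kept these counts within 1.5 times, no named gene's trend changed sign, and the cause of the changes was not tested. Of 48 list medians, 9 changed sign without 0% replicate 2, 9 with the muscle score, 3 after GC and length removal, and none in edgeR. Among them the matrix median went from −0.15 to 0.01 and 0.06, and the contractile median from −0.19 to 0.03 with the score. The 1 oxidative phosphorylation gene that passed rose, and after GC and length removal 1 fell. Of 109 named genes, 47 missed the threshold in edgeR, 18 in voom, and 33 without the 3 libraries. No paired analysis was possible because no replicate number in the labels recurs in another diet.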
